A study of Mus musculus with 6 samples.

Results

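The cells described here were smooth muscle cells of the mouse proximal aorta in which transcripts of at least 2 of the genes Foxf1, Ncam1 and Kcnc4 were counted. They were chosen from the counts: a cell had to pass the quality limits of the study's methods and hold at least 5 Myh11, under 20 Dcn and under 20 Rgs5 molecular identifiers (UMIs, which count captured transcripts once each) per 10000 UMIs of the cell, no UMI of Enpep or Notch3, and a UMI of at least 2 of Foxf1, Ncam1 and Kcnc4. In all, 1160 cells met this rule, of 24972 that passed the quality limits and of 30716 cell barcodes. The 9744 passing cells within the Myh11 and Dcn limits are called VSMCs (vascular smooth muscle cells), so that 11.9% of VSMCs were members, and the other 8584 VSMCs were the comparison.

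The study dissociated the proximal aorta (root with ascending part) of 6 female mice of 129SVE background, all 16 weeks old, and made RNA libraries of single cells with a 3' droplet method (10x Genomics v3), after a sort for cells positive for a DNA dye and negative for propidium iodide. By their labels, 2 mice were Tgfbr1M318R/+, a heterozygous missense allele that models Loeys-Dietz syndrome (LDS), an inherited disorder of TGF-β signalling with aortic root aneurysm, and 4 were Tgfbr1+/+ controls, of which 2 also carried Wnt2CRE and EGFP-L10a and were described as traced for the cardiac neural crest. The barcodes end in a number from 1 to 6 that no label pairs with a mouse. No library was therefore given a genotype, no comparison of LDS with control mice was made, and libraries did not serve as replicates of a condition. Members were picked from the counts that are compared, so no p-value was computed for members against other cells. What follows are values by library or medians over the 6 libraries, with how many pointed each way, and intervals (95%, exact binomial or Poisson) cover counting error only.

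Foxf1 encodes a forkhead transcription factor that acts downstream of hedgehog signals in the mesenchyme of the lung and gut and is known for its part in the development of visceral smooth muscle and of lung vessels. Ncam1 encodes the neural cell adhesion molecule, an immunoglobulin-family protein of the cell surface that binds to itself and is found on neurons, glia and some muscle. Kcnc4 encodes Kv3.4, a fast voltage-gated potassium channel subunit. Myh11, the smooth muscle myosin heavy chain, marks differentiated smooth muscle, while Dcn marks fibroblasts, Rgs5 marks pericytes and some VSMCs, and Enpep and Notch3 are transcripts that the study takes to decline from the proximal to the distal aorta.

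The libraries held between 1863 and 6395 passing cells, between 798 and 3175 VSMCs and between 18218282 and 38105145 UMIs in passing cells. Members were deeper than the other VSMCs in every library, with a median per cell of 7194 to 13560 UMIs against 6125 to 12104. The GFP tracer is given in the labels of 2 mice, yet libraries 1, 2, 3 and 4 each held more than 100 GFP UMIs (263, 201, 157 and 258) and libraries 5 and 6 held 8 and 6. None of the members shared its barcode sequence with a member of another library, and 12 barcode sequences of VSMCs occurred in more than 1 library. No doublets were removed, and the cells in the top 5% of doublet scores of their library were 1.28 to 5.96% of members and 2.18 to 7.72% of other VSMCs.

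The gate turned mostly on Foxf1 and Kcnc4, because a UMI of Ncam1 was common among VSMCs. Of the members, 801 (69.1%) held Foxf1 and Ncam1 without Kcnc4, 265 (22.8%) held Ncam1 and Kcnc4 without Foxf1, 4 held Foxf1 and Kcnc4 without Ncam1, and 90 (7.76%) held all 3. Among the 6734 VSMCs that also passed the Rgs5, Enpep and Notch3 limits (called VSMCs within the limits), 896 held none of the genes, 4678 held 1, 1070 held 2 and 90 held 3, with a median of 5579, 7173, 8577 and 10463 UMIs per cell. The edges of the rule were well filled for Rgs5: 101 members had 10 to 20 Rgs5 UMIs per 10000, and 94 cells that met every other condition had 20 to 40, of 243 such cells at any level above the limit. The Myh11 edge had 54 members at 5 to 10 per 10000 with 19 cells just below it, the Dcn edge had 24 members at 10 to 20 with 18 cells just above it, and 192 cells were left out only for an Enpep or Notch3 UMI.

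The 3 genes were first measured in all VSMCs, which were chosen without them. Ncam1 (mm10, chromosome 9 from 49502136 to 49798925, minus strand) stood at 416 UMIs per 1000000 UMIs (CPM), and 80.1% of VSMCs held a UMI of it. Foxf1 (chromosome 8 from 121084386 to 121088144, plus strand, where the annotation also places Gm20388 on the same strand) stood at 22.2 CPM, with a UMI in 13.5% of VSMCs. Kcnc4 (chromosome 3 from 107438303 to 107459552, minus strand) stood at 8.54 CPM, with a UMI in 5.61%. A 3' method counts transcript ends, so CPM was not divided by transcript length. By library 1 to 6, Foxf1 in all VSMCs was 28.4, 16.4, 35.4, 30.4, 14.1 and 9.70 CPM, lowest in libraries 5 and 6. Ncam1 was 478, 455, 492, 497, 301 and 330 CPM and was again lowest in libraries 5 and 6, whereas Kcnc4 was 12.6, 9.35, 6.53, 7.01, 6.96 and 9.01 CPM with no such order.

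**Figure D1:**
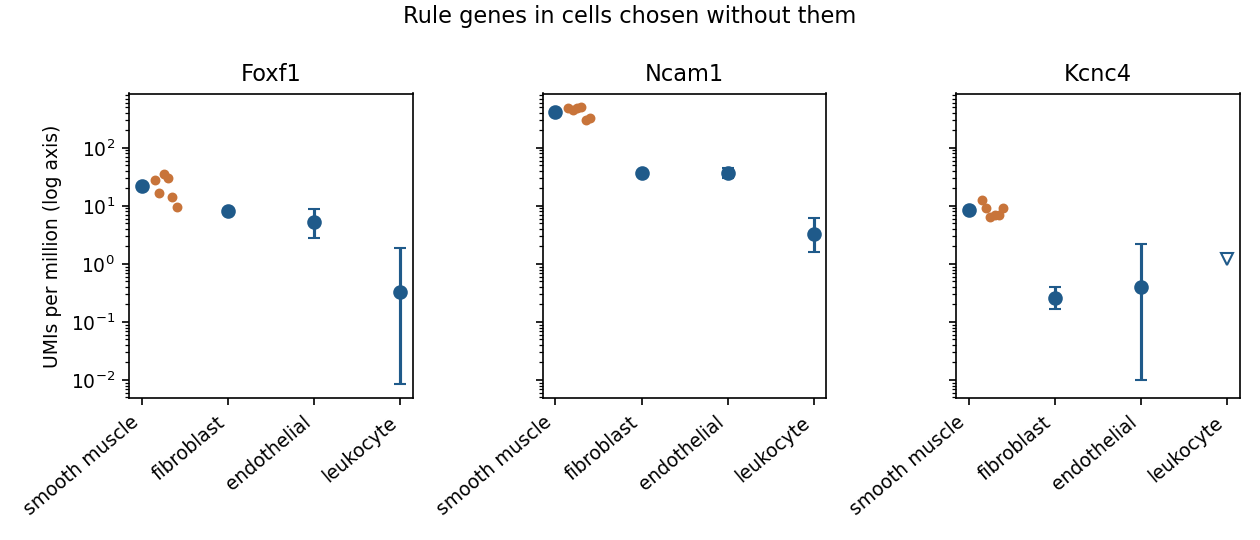
CPM (log axis) of Foxf1, Ncam1 and Kcnc4 in VSMCs, fibroblasts, endothelial cells and leukocytes, groups chosen without these 3 genes. Blue points are the summed libraries with exact 95% Poisson intervals, orange points are the 6 libraries for VSMCs in order from 1 to 6, and the open triangle is the exact Poisson upper bound of 1.22 CPM for Kcnc4 in leukocytes, where no UMI was counted.

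The other cell groups were measured for comparison, and the part of free RNA in their counts was not tested. In 505 leukocytes, gated on at least 3 leukocyte markers, Foxf1 was at 0.331 CPM (interval 0.00838 to 1.84, 1 UMI), Ncam1 at 3.31 CPM (1.59 to 6.09) and Kcnc4 in 0 of 505 cells, which allows up to 0.594% of cells with a UMI (3 cells of the total). In 13043 fibroblasts Foxf1 was at 8.29 CPM (7.70 to 8.91), Ncam1 at 36.8 CPM (35.6 to 38.1) and Kcnc4 at 0.261 CPM (0.166 to 0.392). In 473 endothelial cells Foxf1 was at 5.22 CPM (2.78 to 8.93), so that its interval overlapped that of fibroblasts. After each cell was thinned to 3000 UMIs, 5.97% of VSMCs, 2.43% of fibroblasts, 1.55% of endothelial cells and 0 of 408 leukocytes (which allows up to 0.735%) held a Foxf1 UMI. At that depth the VSMC share lay above the limit or interval of leukocytes for all 3 genes, with Ncam1 in 61.5% and Kcnc4 in 2.46% of VSMCs. Median depths were 7231 UMIs per cell in VSMCs and 4968 in leukocytes before thinning.

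Among VSMCs within the limits, Kcnc4 was counted more often in cells with Foxf1 than in cells without it. A Kcnc4 UMI was in 10.0% of cells with Foxf1 (94 of 937, interval 8.18 to 12.1%) and in 4.86% of cells without it (282 of 5797, 4.33 to 5.45%), and the share was higher with Foxf1 in all 6 libraries. At 3000 UMIs per cell the shares were 3.89% (2.24 to 6.25%) and 2.18% (1.85 to 2.56%), with overlapping intervals and only 16 cells that held both. Library 6 then went the other way, with 0 of 14 cells with Foxf1 and 2.73% of 587 cells without it. Ncam1 was in 95.1% of cells with Foxf1 and 84.3% of cells without it. These shares are a description of sparse counts, in which co-detection moves with depth.

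Members made up 16.6, 15.2, 14.8, 13.4, 7.37 and 7.89% of the VSMCs of libraries 1 to 6, from 268 of 1610 in library 1 to 63 of 798 in library 6. The interval was 14.9 to 18.6% in library 1, 11.9 to 15.1% in library 4, 6.49 to 8.33% in library 5 and 6.12 to 9.99% in library 6, so libraries 5 and 6 lay below the others by more than counting error. They are also the libraries with almost no GFP UMIs, and the part of the mouse or its preparation in the share was not tested. With each cell thinned to 3000 UMIs before the rule was applied, the shares were 5.24, 4.79, 6.06, 6.33, 3.11 and 3.38%, and libraries 5 and 6 were again the lowest, although the interval of library 6 (2.22 to 4.91%) then overlapped those of libraries 1, 2 and 3 and that of library 5 (2.51 to 3.81%) overlapped that of library 2 (3.42 to 6.48%). The mix of members also varied, since a Kcnc4 UMI was in 18.3% of the members of library 3 and in 60.3% of those of library 6.

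**Figure D2:**
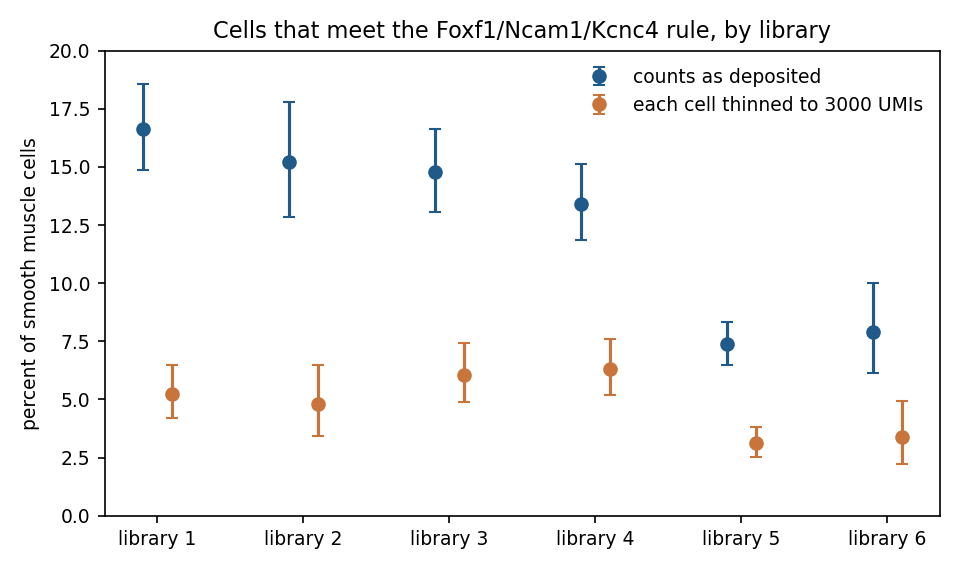
Members as a percentage of the VSMCs of each library, from the counts as deposited (blue) and after each cell was thinned to 3000 UMIs (orange), with exact 95% binomial intervals. Libraries 5 and 6 are the lowest in both, at 7.37 and 7.89% with the deposited counts.

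Smooth muscle markers outside the rule were at the level of other VSMCs. The 6 of them (Tpm2, Smtn, Cnn1, Myl9, Tagln and Acta2) summed to 59835 to 68903 CPM in members and 60719 to 66327 CPM in the other VSMCs. All 6 were present in members. The 11 fibroblast markers, of which none was at 0, summed to a median over libraries of 1674 CPM in members and 1524 CPM in other VSMCs, the 10 endothelial markers to 47.6 and 47.4 CPM with Cldn5 and Tie1 at 0 UMIs in members, and the 7 pericyte markers outside the rule to 250 and 245 CPM with Vtn at 0 UMIs in members. The 14 leukocyte markers summed to 3.63 to 185 CPM in members (median 8.57, with Cd79a at 0 UMIs) and to 7.16 to 149 CPM in other VSMCs (median 33.3). The 10 cardiomyocyte markers had a median sum of 108 CPM in members and 147 CPM in other VSMCs. A list of 12 visceral smooth muscle genes summed to 754 to 1583 CPM in members (median 1026) against 545 to 1104 CPM in other VSMCs (median 709). With the libraries summed, rather than as a median over libraries, Des and Actg2 of this list were at 570 and 487 CPM in members. Chrm3 was at 0 UMIs in members and Foxf2 at 0 in other VSMCs. Medians of the glial list were 13.1 and 14.7 CPM, of the mesothelial list 40.1 and 48.2 CPM, and of the chondrocyte-like list 14.6 and 33.0 CPM.

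For each gene, UMIs were summed over the members and over the other VSMCs of each library, and the log2 ratio of their CPM was taken within the library with a prior of 0.5 UMI. Of 7661 genes compared, 602 (7.86%) were higher in members in all 6 libraries and 443 (5.78%) were lower in all 6. The ratios were small, with quartiles of -0.07 and 0.10 on the log2 scale around a median of 0.02. Only 3 genes (0.0392%), Lepr, Irx3 and Apobec2, were higher in all 6 libraries with a median log2 ratio over 1, and 40 (0.522%) were lower in all 6 with a median under -1. Lepr and Apobec2 were under 10 CPM in other VSMCs (8.78 and 8.23) and entered the comparison only through the members, as did 17 of the 40 lower genes through the other VSMCs. With other VSMCs weighted to the members' depth, 0 genes were higher with a median over 1. The other VSMCs include cells outside the Rgs5, Enpep and Notch3 limits, so members were also set against the 5574 other VSMCs within the limits. Of 7643 genes in that comparison, 392 (5.13%) were higher and 289 (3.78%) lower in all 6 libraries, 1 (0.0131%) passed a median of 1 (Sfrp2) and 6 (0.0785%) passed a median of -1 (Thbs1, Plk2, Gata4, Cd34, Sfrp1 and H2-Aa, of which Cd34 and H2-Aa were chosen after their values were seen). Plk2 and Gata4 were under 10 CPM in members (8.00 and 6.16) and entered that comparison only through the other cells. With those cells also weighted to the depth of the members (7623 genes), 5.3% were higher and 3.49% lower in all 6 libraries, and 0.0131% and 0.0787% passed a median of 1 or -1.

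The 15 genes with the largest ratios against all other VSMCs, among those higher in all 6 libraries, were Lepr, Irx3, Apobec2, AC154509.1, Ackr3, Tpd52l1, Cldn3, Plaur, Clmp, Actn2, Gas1, Des, Mfap5, Bche and Bmpr1b. Their medians ran from 0.68 to 1.06. Against VSMCs within the limits, a comparison that shares the members and most of the other cells, all 15 had a median above 0, from 0.48 to 0.93, and 12 were again higher in all 6 libraries. The exceptions were Apobec2, Tpd52l1 and Actn2, each higher in 5. Lepr, Apobec2 and Clmp were under 10 CPM in the other VSMCs of both comparisons and entered them only through the members. With depth weighting, 9 of the 15 were higher in all 6 libraries.

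**Figure D3:**
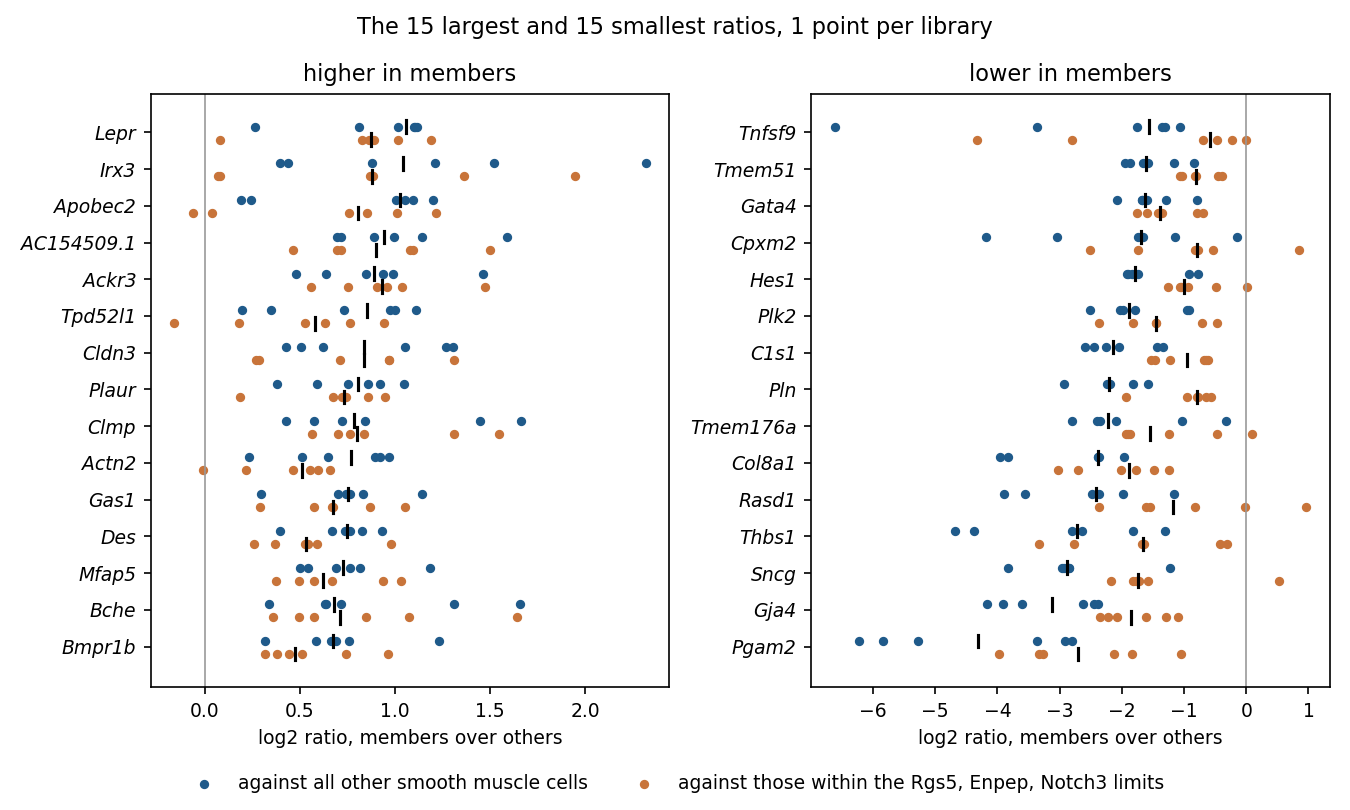
Log2 ratio of CPM in members over CPM in other VSMCs, 1 point per library, for the 15 genes with the largest (left) and the 15 with the smallest (right) median ratio. Blue points compare with all other VSMCs and orange points with those within the Rgs5, Enpep and Notch3 limits, and black bars are medians: medians on the right lie nearer to 0 in orange, as for Pln (-2.20 and -0.79).

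Irx3 encodes an Iroquois homeobox factor of tissue patterning (chromosome 8 from 91798525 to 91802067, minus strand). It was at 26.8, 18.0, 32.7, 37.0, 22.5 and 25.9 CPM in the members of libraries 1 to 6, and at 20.4, 13.3, 17.7, 15.9, 7.81 and 5.10 CPM in the other VSMCs. Members were higher in every library, least in libraries 1 and 2 (log2 ratios of 0.39 and 0.44) and most in library 6 (2.32). The median was 1.04, and 0.88 within the limits, where libraries 1 and 2 were at 0.07 and 0.08. With depth weighting it was 0.75, with 5 of 6 libraries higher. Irx5, its neighbour in the same gene cluster, chosen after its values were seen, was under the level of 10 CPM for comparison, with a median of 0.94, 5 of 6 libraries higher and 73 UMIs in members.

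Lepr, the leptin receptor, was at 10.0, 11.1, 17.1, 23.3, 18.2 and 17.3 CPM in members and at 8.34, 5.43, 7.90, 10.8, 10.4 and 7.90 CPM in other VSMCs. Library 1 had the smallest gap, a log2 ratio of 0.26, and the median was 1.06 (0.88 within the limits). It rested on 169 UMIs in members, and fibroblasts stood higher than either group, at 66.2 CPM. Ackr3, an atypical receptor that takes up the chemokine CXCL12, was at 35.2 CPM in members over all libraries and 18.4 CPM in other VSMCs, with a median of 0.89 against all others, 0.93 within the limits and 0.68 with depth weighting, and was higher in all 6 libraries each time. Its ligand Cxcl12 was higher in 5 of 6 libraries, with a median of 0.44. Fibroblasts held 476 CPM of Ackr3, and the part of fibroblast RNA in the ratio was not tested.

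Des, the muscle intermediate filament desmin, was at 509, 787, 517, 472, 695 and 369 CPM in members and at 320, 444, 271, 278, 417 and 281 CPM in other VSMCs, a median of 0.75 with every library above 0. Within the limits the median was 0.53, and with depth weighting it was 0.29 with 5 of 6 libraries above 0. Actn2, the sarcomeric α-actinin, stood at 19.9 and 11.9 CPM (median 0.77). Clmp, a junctional adhesion protein, was at 17.8 CPM in members and 9.27 CPM in other VSMCs, with a median of 0.78, 0.80 within the limits and 0.84 with depth weighting, in all 6 libraries each time. Clmp was also under 10 CPM in VSMCs within the limits (9.10), and so entered both comparisons only through the members. Fibroblasts held 49.4 CPM of Clmp, and the part of fibroblast RNA in its ratio was not tested. Cldn3, a tight junction claudin, stood at 29.2 and 14.5 CPM with a median of 0.84 in both comparisons. Plaur, the urokinase receptor, was at 20.0 and 11.6 CPM, and Bche, the plasma cholinesterase, at 39.1 and 21.4 CPM.

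Sfrp2, a secreted antagonist of WNT ligands (chromosome 3 from 83766321 to 83774316, plus strand), was the gene past a median of 1 within the limits. It was at 89.8, 34.3, 122, 158, 44.4 and 77.7 CPM in members and at 29.3, 24.6, 57.2, 119, 20.6 and 31.0 CPM in other VSMCs within the limits. Every library was higher in members, with log2 ratios from 0.41 in library 4 to 1.61 in library 1 and a median of 1.10 (1.23 with depth weighting). Against all other VSMCs the median was 0.51, and library 2 was level at 34.3 and 34.2 CPM. Its relative Sfrp1 went the other way, at 14 CPM in members and 41 CPM in other VSMCs, with a median of -1.35 (-1.22 within the limits) and all 6 libraries lower. The proteoglycan genes Vcan and Gpc3, chosen after their values were seen, were higher in members in all 6 libraries in both comparisons, with medians within the limits of 0.70 and 0.67. Fibroblasts held 127 CPM of Sfrp2, 207 CPM of Vcan and 253 CPM of Gpc3, and also 370 CPM of Sfrp1, which was lower in members. Members over all libraries held 89.1 CPM of Sfrp2, 64.3 CPM of Vcan and 160 CPM of Gpc3. The part of fibroblast RNA in these ratios was not tested.

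Promoter sequences of the genes with the largest ratios were searched for a core forkhead motif, since Foxf1 was part of the gate. The RefSeq table (GRCm38.p6) covers 250 bases before to 50 bases after each start site and held 15 promoters for 12 of the 15 genes, and entries for Sfrp2, Vcan and Kcnc4. The motif TGTTTAC on either strand (GTAAACA on the other) was in none of these, and in 3.65% of all 32851 promoters of the table. No match says only that these letters are not in these windows. The 250 bases before the start site are shown for Sfrp2 and Ackr3, the genes with the largest medians within the limits (1.10 and 0.93), in lower case with no capitals because the motif did not occur.
Sfrp2 (GRCm38.p6, chr3:83766071-83766320, plus strand): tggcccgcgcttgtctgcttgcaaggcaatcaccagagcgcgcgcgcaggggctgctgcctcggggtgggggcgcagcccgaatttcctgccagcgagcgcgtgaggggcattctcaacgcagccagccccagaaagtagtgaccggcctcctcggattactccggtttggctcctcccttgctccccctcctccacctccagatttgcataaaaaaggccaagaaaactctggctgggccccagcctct
Ackr3 (GRCm38.p6, chr1:90203730-90203979, plus strand): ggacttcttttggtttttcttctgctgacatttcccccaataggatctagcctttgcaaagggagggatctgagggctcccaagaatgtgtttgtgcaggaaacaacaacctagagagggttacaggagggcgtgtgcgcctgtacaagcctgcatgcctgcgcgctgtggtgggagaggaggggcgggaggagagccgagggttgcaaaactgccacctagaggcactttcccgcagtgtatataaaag

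The 15 smallest ratios belonged to Pgam2, Gja4, Sncg, Thbs1, Rasd1, Col8a1, Tmem176a, Pln, C1s1, Plk2, Hes1, Cpxm2, Gata4, Tmem51 and Tnfsf9, with medians from -4.32 to -1.56. All but Thbs1, Pln, C1s1 and Hes1 were under 10 CPM in members and entered the comparison only through the other VSMCs. All 15 were also below 0 in the median against VSMCs within the limits, from -2.70 to -0.58, and 9 were again lower in all 6 libraries. Of the 15, Pgam2, Gja4, Rasd1, Col8a1, Cpxm2, Tmem51 and Tnfsf9 had a mean under the 10 CPM asked for comparison there. Pgam2, Gja4, Col8a1 and Tmem51 were among the 9. Pgam2, muscle phosphoglycerate mutase, was at 1.43, 0.582, 0.519, 0.569, 4.28 and 7.40 CPM in members and at 15.3, 50.6, 23.5, 37.6, 32.5 and 52.4 CPM in other VSMCs. Its members' values rested on 21 UMIs in all. In VSMCs within the limits it was at 6.60, 11.2, 6.32, 6.54, 15.4 and 15.5 CPM, with a median of -2.70 against -4.32, at a level under the 10 CPM asked for comparison there. Pln, the phospholamban that restrains calcium uptake into the sarcoplasmic reticulum, and Gja4, the gap junction protein connexin 37, had medians of -2.20 and -3.12 against all other VSMCs and of -0.79 and -1.84 within the limits, with Gja4 also under 10 CPM there. Cpxm2 overlaps Fgfr2 on the same strand, so the counts of these genes cannot be told apart in the overlap.

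Gata4, a zinc finger factor of heart and outflow tract development and the factor that the study places in the aortic root (chromosome 14 from 63198922 to 63271692, minus strand), was at 3.94, 4.07, 4.67, 4.55, 14.4 and 6.17 CPM in members. In other VSMCs it was at 12, 13.3, 15, 19.5, 25 and 15.3 CPM, and in those within the limits at 10.7, 10.6, 14.4, 15.7, 23.4 and 10.8 CPM. Members were lower in every library. The member level of library 5 overlapped the comparison levels of other libraries, but within library 5 members were still lower (log2 ratio -0.79). The median was -1.63 against all others, -1.39 within the limits and -1.29 with depth weighting, with all 6 libraries lower each time. The members' values rested on 67 UMIs in all, from 27 in library 5 to 5 in library 6. At 6.16 CPM in members, Gata4 reached the mean of 10 CPM only through the comparison cells (17.8 CPM, and 15.8 CPM within the limits). Thbs1, the matricellular protein thrombospondin 1, was at 20.4, 2.91, 19.7, 11.9, 12.3 and 4.93 CPM in members and at 25.4, 20.7, 26.6, 37.5, 39.3 and 51.4 CPM within the limits, a median of -1.66 in which libraries 1 and 3 were nearest to 0 (-0.32 and -0.43), and with depth weighting 4 of 6 libraries were lower.

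Tes and Ptprz1, which the study takes to increase from the proximal to the distal aorta, were higher in members in all 6 libraries in both comparisons. Tes, a focal adhesion protein, was at 138 CPM in members, 101 CPM in other VSMCs and 109 CPM within the limits (medians 0.37 and 0.22), and Ptprz1, a receptor phosphatase, at 244, 178 and 199 CPM (0.50 and 0.26). With depth weighting Tes was higher in all 6 libraries and Ptprz1 in 5. Igfbp2, which binds insulin-like growth factors, had a median of 0.88 but was lower in library 2 (102 against 120 CPM), and with depth weighting the median was 0.20 with 4 of 6 libraries higher. Tnnt2, cardiac troponin T, chosen after its values were seen, was lower in all 6 libraries (median -0.64, and -0.84 within the limits), and it is among the cardiomyocyte markers whose summed level was also lower in members. Cells with UMIs of at least 2 of Igfbp2, Ptprz1 and Optc made up 53.1% of members, and members were 16.7% of all such VSMCs. The median over libraries was 54.2% of members and 48.1% of VSMCs within the limits weighted to the members' depth, higher in members in 5 of 6 libraries. Cells with at least 2 of Pln, Pgam2 and Olfr558 were 0.517% of members (6 cells), a lower share than in the weighted comparison in every library. Cells with at least 2 of Tnnt2, Fabp3 and Npnt were a median of 40.3% of members and 38.5% of the weighted comparison, higher in members in 5 of 6 libraries, and Fabp3 and Npnt, unlike Tnnt2, were higher in all 6 libraries against all other VSMCs. For Nptx2, Scx and Wnt16 the medians were 19.1% of members and 20.0% of the weighted comparison, with the share higher in members in 4 of 6 libraries.

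**Figure D4:**
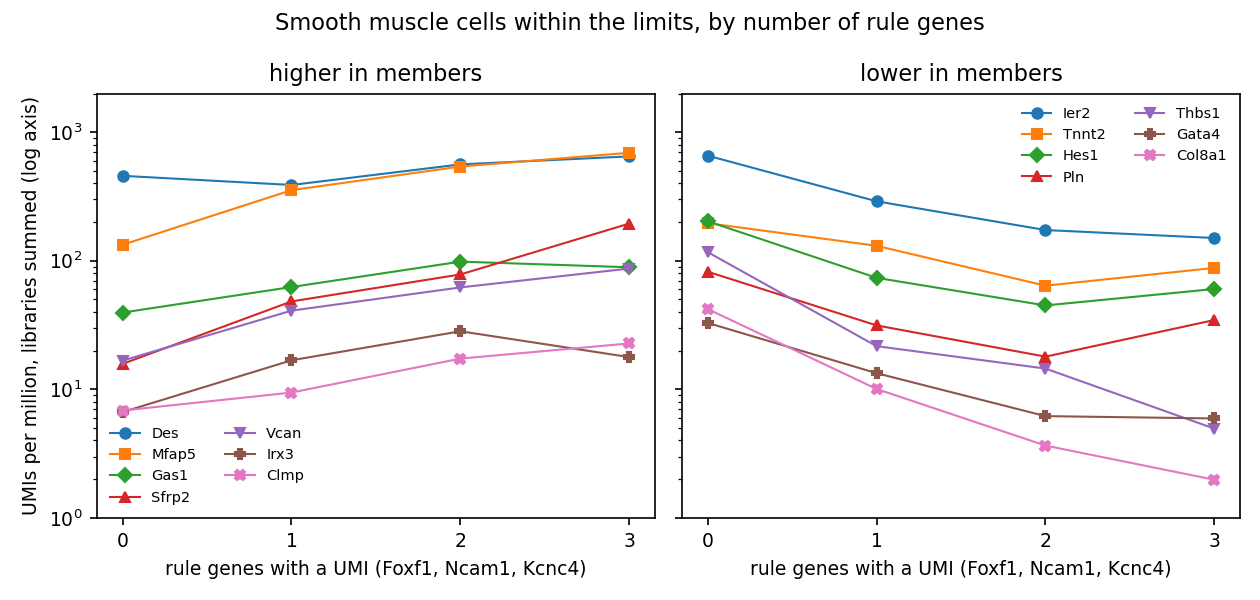
CPM (log axis, libraries summed) of 14 named genes in the 896, 4678, 1070 and 90 VSMCs within the limits that held a UMI of 0, 1, 2 or 3 of the rule genes; members are the cells with 2 or 3. Sfrp2 went from 15.8 to 195 CPM and Gata4 from 32.9 to 5.93 CPM between 0 and 3.

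Levels were also read by the number of rule genes detected, which is the rule's own measure, as a description of cells just outside and inside it. Sfrp2 was at 15.8, 48.2, 78.2 and 195 CPM in VSMCs within the limits that held 0, 1, 2 and 3 of the genes, Vcan at 16.7, 40.9, 62.0 and 87.0 CPM, and Mfap5, a microfibril glycoprotein of elastic fibres, at 133, 354, 541 and 692 CPM. Gata4 was at 32.9, 13.4, 6.18 and 5.93 CPM and Hes1, a target of Notch signalling, at 203, 73.7, 44.9 and 60.3 CPM. The cells with 0 came mostly from library 5 (546 of 896) and were the shallowest, and the part of library and depth in these orders was not tested.

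Members with Foxf1 and those with Kcnc4 were then set apart, each against other VSMCs within the limits. Gas1 stood at 107 CPM in the 801 members with Foxf1 and Ncam1 (median log2 ratio 0.81) and at 72.3 CPM in the 265 with Ncam1 and Kcnc4 (0.23). Des stood at 582 and 498 CPM (0.58 and 0.17) and Irx3 at 31.0 and 20.5 CPM (1.04 and 0.50). Sfrp2 went the other way, at 71.3 and 99.2 CPM (0.63 and 1.20), as did the latent TGF-β binding protein gene Ltbp2, at 32.1 and 46.2 CPM (0.57 and 1.03). Tnnt2 was lower in the members with Kcnc4, at 40.7 CPM, than in those with Foxf1, at 71.9 CPM. Gas1 was higher in all 6 libraries in both kinds of member, Des in 6 and 5, and Irx3 in 5 and 4. Sfrp2 and Ltbp2 were each higher in 5 of 6 libraries in both kinds. The CPM values are of libraries summed, and the kinds had unlike library mixes, with 188 and 27 cells in library 3. In library 6 they had 25 and 31 cells. Whether these kinds of member differed, and the part of library in the CPM values, was not tested.

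Of 28 contractile genes compared, 9 were higher in members in all 6 libraries (Des, Itga8, Actg2, Kcnmb1, Cnn1, Actn1, Myl9, Pdlim7 and Mrvi1) and 2 lower (Pln and Csrp1), against 7.86% and 5.78% of all genes compared, and the median of the list was 0.02, the same as over all genes compared. Actg2, the enteric smooth muscle actin, was at 487 CPM in members, 386 CPM in other VSMCs and 356 CPM within the limits, with medians of 0.21 and 0.30. Itga8, an integrin subunit of smooth muscle, was at 1120 and 962 CPM with a median of 0.22. Calponin, encoded by Cnn1, had a median of 0.13, while Acta2 (0.08) and Tagln (0.00) were not of 1 sign in all libraries. Within the limits 9 of 28 were higher and 1, Pln, lower (5.13% and 3.78% of all genes).

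Of 65 extracellular matrix genes and receptors compared, 20 were higher in all 6 libraries and 5 lower (7.86% and 5.78% of all genes compared), with a list median of 0.08. Within the limits it was 14 and 5 of 64 (5.13% and 3.78% of all genes), with a median of 0.06. Mfap5 was at 635, 688, 606, 621, 304 and 308 CPM in members and 449, 405, 375, 427, 134 and 175 CPM in other VSMCs, a median of 0.73 (0.62 within the limits). Its level was lowest in libraries 5 and 6 in both groups, and members were higher in each. Fibroblasts held 1216 CPM of it, and it is itself among the 11 fibroblast markers whose sums are given above. Col6a2 and Col6a1, chains of collagen VI, had medians of 0.52 and 0.41, Col15a1 0.48 and the matricellular gene Postn 0.48, while Eln, the elastin gene, was at 1679 CPM in members and 1229 CPM in other VSMCs (0.30, and 0.22 with 4 of 6 libraries higher within the limits). The 5 lower genes were Thbs1, Col8a1, Cyr61, Lama5 and Ctgf, of which Cyr61 (-0.61) and Ctgf (-0.14) are targets of YAP signalling.

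**Figure D5:**
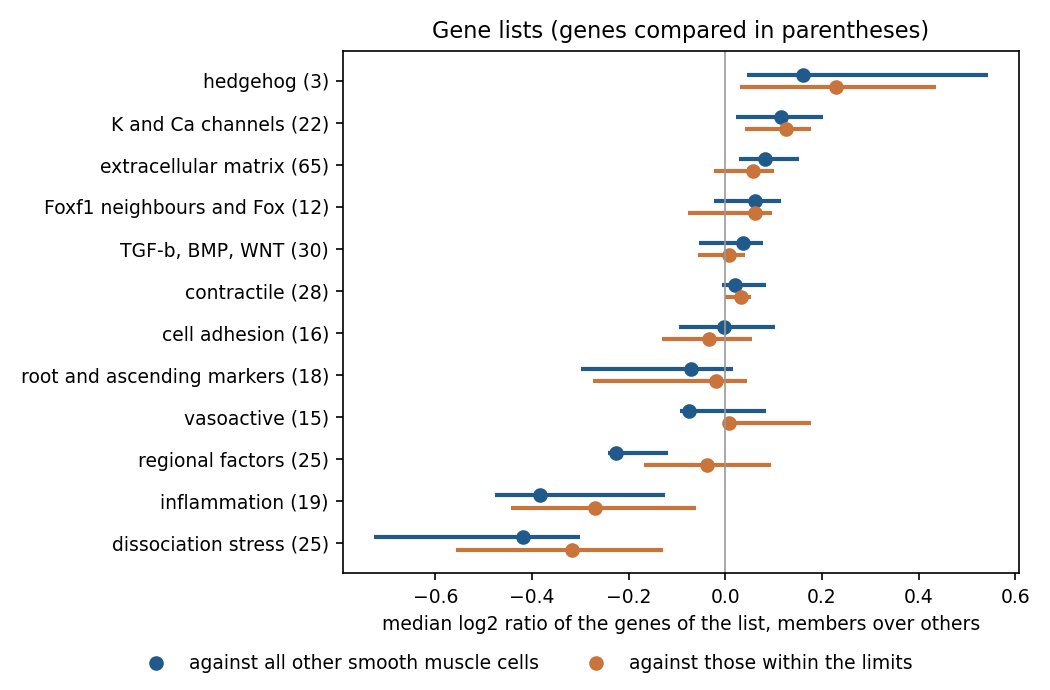
Median log2 ratio of the genes of each list, members over other VSMCs (blue) or over those within the limits (orange). Points are the median over genes of each gene's median over libraries, lines run from the lowest to the highest library, and the dissociation stress and inflammation lists lie below 0 in all 6 libraries under both comparisons.

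Of 25 immediate early and stress genes compared, transcripts known to respond to tissue dissociation, 18 were lower in all 6 libraries and none higher (background 5.78% and 7.86%), with a list median of -0.42. Within the limits 11 were lower and none higher (3.78% and 5.13%), with a median of -0.32. Ier2 was at 78.7, 164, 132, 166, 356 and 183 CPM in members and at 142, 211, 315, 324, 524 and 322 CPM in VSMCs within the limits, lower in each library with a median of -0.83. Fos, Jun and Egr1 had medians within the limits of -0.57, -0.55 and -0.43, and the chaperones Hspa5 (0.07) and Hsp90aa1 (3 libraries higher and 3 lower) were not of 1 sign. The ratio was taken within each library, and the part of dissociation in these ratios was not tested.

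Of 19 inflammation genes compared, 9 were lower in all 6 libraries and 1 higher (5.78% and 7.86% of all genes), with a list median of -0.38, and within the limits 5 were lower and 1 higher (3.78% and 5.13%), with a median of -0.27. Irf1, an interferon-induced factor, was at 14.4 CPM in members and 40.1 CPM in other VSMCs, a median of -1.20 (-0.89 within the limits). Socs3 and Cebpd, which also respond to cytokines, had medians within the limits of -0.60 and -0.48. Socs3 is in the stress list as well. Cxcl2 ranged from -3.84 to 2.02 over libraries and had no direction, and B2m, the light chain of MHC class I, was slightly higher in all 6 libraries (0.13). The MHC class II genes H2-Aa and H2-Ab1, chosen after their values were seen, were lower in all 6 libraries in both comparisons, with medians within the limits of -1.04 and -0.95. H2-Eb1 and Cd74, of the same antigen presentation pathway, were lower in 5 of 6 libraries (-0.77 and -1.09 within the limits) and higher in library 5 (0.20 and 0.15). Cells with UMIs of at least 2 of H2-Aa, H2-Ab1 and H2-Eb1 were 5.09% of members, and fewer than among depth-weighted VSMCs within the limits in all 6 libraries. The summed leukocyte markers moved with these genes, at a median of 8.57 CPM in members and 40.8 CPM in VSMCs within the limits, and their part in the result was not tested.

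Transcription factors of regional identity and lineage, 25 compared, had 2 higher (Irx3 and Hoxa3) and 13 lower in all 6 libraries (7.86% and 5.78% of all genes compared), with a median of -0.23. Within the limits the count was 1 higher and 6 lower of 23 (5.13% and 3.78% of all genes) and the median -0.04. Those lower in both were Gata4, Tbx18, Heyl, Id3 and Mef2c. Heyl is a target of Notch signalling, and it was at 97.4 CPM in members and 114 CPM within the limits (-0.29). Nr2f2 and Id1 were lower in all 6 libraries against all other VSMCs (-0.60 and -0.31) and not of 1 sign within the limits (-0.04 and 0.04). Of 18 genes of a list that marks VSMCs from root to ascending aorta, drawn partly from these samples and so not independent of them, 4 were higher and 6 lower in all 6 libraries (7.86% and 5.78% of all genes). Within the limits 3 of 17 were higher and 5 lower (5.13% and 3.78%), and with depth weighting 2 and 4 (5.3% and 3.49%).

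Of 12 forkhead genes and Foxf1 neighbours compared, none was higher or lower in all 6 libraries, in either comparison, a count near the share over all genes (7.86% and 5.78%, and 5.13% and 3.78% within the limits). Mthfsd, a gene near Foxf1, had a median of 0.19 and was higher in 5 of 6. Of the hedgehog pathway only Gas1, Smo and Boc reached 10 CPM. Gas1, a co-receptor of hedgehog ligands, was at 68.3, 92.5, 149, 138, 72.8 and 56.7 CPM in members and at 55.6, 54.5, 89.0, 77.3, 44.8 and 25.6 CPM in other VSMCs. It was higher in each library, with a median of 0.75 and 0.67 within the limits. Fibroblasts held 337 CPM of Gas1, and the part of fibroblast RNA in the ratio was not tested. The receptor Smo (0.16) and the co-receptor Boc (0.08) were not of 1 sign. The target genes Gli1 (29 UMIs in members) and Ptch1 (67 UMIs), chosen after their values were seen, were at 2.67 and 6.16 CPM in members and 2.05 and 7.49 CPM in other VSMCs, under the level for comparison. Against all other VSMCs Ptch1 was lower in members in all 6 libraries, with a median of -0.15, and Gli1 was not of 1 sign. Within the limits neither ratio was of 1 sign. The long noncoding RNA Fendrr beside Foxf1 was not analysed here.

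Channels had 5 of 22 genes higher and 2 lower in all 6 libraries (7.86% and 5.78% of all genes compared), with a median of 0.12, and 3 and 3 within the limits (5.13% and 3.78%), with a median of 0.12. Ano1, a calcium-activated chloride channel, was at 77.6, 62.3, 44.1, 42.1, 55.6 and 74.0 CPM in members and at 56.9, 43.4, 35.6, 34.6, 41.5 and 54.0 CPM within the limits, higher in every library with a median of 0.43. The inward rectifier Kcnj15 had a median of 0.56 that was 0.21 within the limits, and the potassium channel Kcnh2 was lower in both (-0.16 and -0.20). Cell adhesion genes, the class of Ncam1, had 2 of 16 higher (Ptprz1 and Ntn1) and 2 lower (Vcam1 and Cdh6), near the 7.86% and 5.78% of all genes. Within the limits 1 was higher and 1 lower, near the 5.13% and 3.78% of all genes. In the TGF-β, BMP and WNT list, 3 of 30 were higher (Bmpr1b, Sfrp2 and Dkk3) and 5 lower, against 7.86% and 5.78% of all genes. Bmp2 was among the lower ones (-1.39, and -0.59 within the limits). At 8.64 CPM in members, it entered both comparisons only through the other cells (20.3 CPM, and 13.5 CPM within the limits). Bmpr1b, a BMP receptor, was at 31.2 CPM in members and 18.0 CPM in other VSMCs. Of 15 vasoactive receptors and effectors, 3 were higher (Npr3, Npr1 and Ramp1) and 2 lower, against 7.86% and 5.78% of all genes. Npr1 and Npr3, receptors of natriuretic peptides, had medians of 0.51 and 0.63 (0.33 and 0.49 within the limits), and Gucy1a1, a subunit of the nitric oxide receptor, was at 213 and 295 CPM with a median of -0.45.

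A GFP UMI was in 12.3, 12.3, 2.17 and 5.53% of the members of libraries 1 to 4 and in 9.17, 12, 4.15 and 5.02% of their other VSMCs, against 2.22, 0, 0.855 and 0% of their leukocytes, where 0 of 44 and 0 of 141 cells allow up to 6.82 and 2.13%. In CPM, members were higher than other VSMCs in library 1 (14.7 and 12.5) and lower in libraries 2, 3 and 4, so that share and level gave no common direction. No member of libraries 5 and 6 held a GFP UMI, which allows up to 1.28 and 4.76%.

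A last measure used all variable genes outside the rule. Among the 30 nearest neighbours of each VSMC within its library, members were a median of 24.6% around members and 14.1% over all VSMCs, a ratio of 1.5 to 2.14 across libraries. Around other VSMCs the median was 15.3%. After thinning to 3000 UMIs the ratio to the share over all cells was 1.11 to 1.55, and among VSMCs within the limits 1.10 to 1.25. In the latter the medians were 24.4% around members and 22.0% around other cells. In each library, on average, most neighbours of a member were other VSMCs.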

How the data were processed

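The authors deposited UMI counts (whole numbers, not normalized) of 31055 features in 30716 barcodes as 1 matrix, made with Cell Ranger 6 on mm10 per the labels and methods, though the header names version 4.0.0. Whether the aggregation equalized depth is not given in the sources used here. Cells were kept with more than 1000 and under 5000 genes, more than 1500 and under 25000 UMIs and under 20% mitochondrial UMIs. Members and gene lists were chosen with earlier results of these data known. UMIs were summed per group and library, and genes with a mean of at least 10 CPM over both groups were compared. A gene passed where all 6 libraries had the same sign and the median log2 ratio was over 1 in size. Named genes were the 15 largest and 15 smallest ratios of 1 sign with at least 30 UMIs, 2 largest and 2 smallest of each list, and Gata4, Tes, Ptprz1, Igfbp2 and GFP (Fendrr was also listed). Other genes of the lists that the text names with values were chosen after their values were seen. Depth weighting matched the comparison cells to 5 depth bins of the members. Neighbours used 20 principal components of 2000 variable genes. Thinning left out VSMCs under 3000 UMIs (12 to 251 per library). Scrublet (scanpy 1.11.5) set no threshold in any library, so leaving out the top 5% of scores was an alternative. The calculation of the ratios was checked on Poisson counts simulated with set changes. Those counts held no spread between cells and no choice of members by the rule, so the check does not cover either. Python 3.11.15, numpy 2.4.6 and scipy 1.17.1 were used, with coordinates from GENCODE M21. The alternatives are named with their effect in the closing section.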

Additional observations from a re-analysis of the deposited data

How the results depend on the processing

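The libraries could not be mapped to mice, so all results are descriptions. No paired analysis was possible because the barcode numbers carry no replicate number of the labels, so mice could not be paired across groups. Each ratio of members to other cells was itself taken within 1 library. Against VSMCs within the Rgs5, Enpep and Notch3 limits, 1 gene was higher and 6 lower in all libraries with a median past 1 in size, 392 were higher and 289 lower in all libraries, and the list medians were -0.038 for regional factors and 0.0078 for vasoactive genes. With all other VSMCs weighted to the members' depth, 0 genes were higher with a median over 1. With all 3 rule genes required (90 members), 7 genes were higher with a median over 1, 169 were higher and 213 lower, and list medians were 0.067 (contractile), -0.16 (forkhead genes and Foxf1 neighbours, which reversed), -0.45 (hedgehog), 0.011 (channels), -0.33 (root to ascending), 0.037 (matrix), -0.76 (inflammation) and -0.0441 (TGF-β, BMP and WNT). That rule also reversed Igfbp2 (-0.31), Cxcl12 (-0.11), Hoxb3 (-0.19) and Cdh6 (0.27). Without a filter on low genes (15387 compared), 12 genes were higher and 225 lower with a median past 1 in size and 779 were lower, and list medians were -0.079 (cell adhesion), 0.00 (channels), -0.10 (TGF-β, BMP and WNT) and -0.20 (vasoactive). At 50 CPM (2853 compared), the counts were 0, 8, 383 and 215, and the medians 0.75 (hedgehog) and 0.11 (root to ascending). The next values come from alternatives chosen after seeing the data. Within the limits and weighted for depth, 1 gene was higher and 6 lower with a median past 1 in size, 266 were lower, and the medians were -0.023 (regional factors), -0.24 (inflammation) and 0.089 (vasoactive). With no limit on Rgs5 and no Enpep or Notch3 UMI in either group, 6 were higher and 6 lower with a median past 1 in size, and the medians were 0.013 (regional factors, which reversed) and 0.069 (vasoactive), with Foxc1 at 0.0059, reversed. The median share of members was 5.01% with thinned cells, 0.92% with all 3 genes and 16.7% with no limit on Rgs5. Leaving out each library in turn gave 2 to 4 genes higher and 35 to 51 lower with a median past 1 in size, 758 to 808 higher and 542 to 609 lower over the remaining libraries, and a median share of 13.4 to 14.8%. The cause of these moves was not tested. Of 1422 values of 79 named genes, 1309 stayed within 1 SD over libraries. The intervals cover counting error only, and genes under 10 CPM were limited by depth.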
